A study of Mus musculus with 2 samples.

Results

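The 10 genes described here encode the NF-kB transcription factor subunits (Nfkb1, Nfkb2, Rela, Relb and Rel) and the proteins that restrain or modify them (Nfkbia, Nfkbib, Nfkbie, Nfkbiz and Tnfaip3). They were chosen by gene symbol, and each matched 1 of the 16463 genes in the deposited table. All 10 had at least 20 counts in 1 library, a minimum that 11525 genes reached. RNA came from unstimulated bone marrow-derived macrophages, which are macrophages grown from marrow precursors, here in a 5-day culture whose medium held 10% serum and, as a source of macrophage colony-stimulating factor, 10% conditioned medium of L929 fibroblasts. The TKO library came from C57BL/6J mice labelled mir-106a~363-/-, mir-106b~25-/- and mir-17~92flox/flox with Lyz2-Cre, a recombinase made in myeloid cells from the lysozyme M locus. The WT library came from C57BL/6J mice that carry Lyz2-Cre with no cluster deletion in their label, so both groups share the Cre. Each genotype had 1 library, and the labels do not give the number of mice behind it or their ages. No difference below has a replicate check, no test between genotypes was possible, and all intervals are 95% intervals for counting error only.

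NF-kB is a family of dimeric transcription factors that waits in the cytoplasm of resting cells, bound by inhibitors of the IkB family. Signals from Toll-like receptors or tumour necrosis factor activate the IKK kinase complex, which marks the inhibitors for destruction and lets the dimers enter the nucleus. Several inhibitors are themselves NF-kB target genes, which closes a feedback loop, and in macrophages the pathway drives inflammatory cytokine and chemokine genes.

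The 3 clusters named in the TKO genotype encode microRNAs of 4 seed families, shown here because the seed decides which transcripts can pair with them. A representative of each family is given 5′ to 3′ with the seed, bases 2 to 8, in capitals, from RefSeq on GRCm38.p6. All 4 lie in mir-17~92 on chromosome 14, plus strand, and start at 115043684, 115043867, 115044048 and 115044476 in the order given.
mmu-miR-17-5p: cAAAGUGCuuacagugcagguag
mmu-miR-18a-5p: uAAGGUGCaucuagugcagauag
mmu-miR-19a-3p: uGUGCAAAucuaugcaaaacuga
mmu-miR-92a-3p: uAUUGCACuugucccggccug

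Matches to these seeds were then looked for in the NF-kB transcripts. The longest 3′ UTR of a protein-coding transcript of each gene, from GENCODE M21, was searched for the 7 bases complementary to each seed. A match to at least 1 of the 4 families was found in 3 of the 10 genes, against 34.2% of the 10769 tested genes with an annotated 3′ UTR. Rel, Nfkbiz and Tnfaip3 held the 4 matches, and no match was found in the searched 3′ UTRs of Nfkb1, Nfkb2, Rela, Relb, Nfkbia, Nfkbib and Nfkbie. The matched stretches are printed, with the matched bases in capitals, because they are where these seeds could pair with an NF-kB transcript.
Rel, miR-18 family, chr11:23741399-23741422, minus strand, GRCm38: tgcttcccgttgctaaGCACCTTg
Nfkbiz, miR-17 family, chr16:55812281-55812304, minus strand, GRCm38: gatgtgaggttgatgtGCACTTTg
Tnfaip3, miR-18 family, chr10:19002067-19002090, minus strand, GRCm38: tcgctctcggctgtatGCACCTTc
Tnfaip3, miR-19 family, chr10:19001016-19001039, minus strand, GRCm38: tagaaagtttgtgaaaTTTGCACa
The log2 ratio of TKO over WT was -0.83 for Rel, -0.31 for Nfkbiz and -0.32 for Tnfaip3, and the counting intervals of Nfkbiz and Tnfaip3, given below, include 0. Nfkb1 and Rela, with no match, also lay below 0, at -0.13 and -0.22. Over all searched genes the median log2 ratio was -0.06 with a match and 0.03 without, and 0.01 and 0.00 after removal of the length trend described below. A match is a stretch of letters and not a shown binding site, and mature microRNAs were not measured in this polyadenylated RNA.

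The libraries had 10656431 counts in TKO and 10877897 in WT. The host transcript of mir-17~92, Mir17hg, had 42 counts in TKO and 8 in WT, and Mcm7, with mir-106b~25 in an intron, had 1083 in TKO and 1228 in WT. Reads of a host gene outside the deleted part do not check the deletion. Macrophage identity markers were present in both libraries, as all 11 listed genes reached the minimum. Of the 11, 0 passed the size rule, against 4.73% of the 11525 tested genes. Their levels summed to 4091 FPKM in TKO and 3891 FPKM in WT, with Cd68 alone at 1440 FPKM in TKO and 1124 FPKM in WT. Their log2 ratios of TKO over WT lay above 0 for 4 and below 0 for 7, with a median of -0.15. The range ran from -0.43 for Adgre1 to 0.68 for Fcgr1. FPKM is the authors' count scaled for gene length and library depth. The size rule asks for at least 20 counts in 1 library, a 2-fold difference or more, and a counting interval that excludes no change.

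Of the 10 NF-kB genes 0 passed the size rule, which 4.73% of the 11525 tested genes passed (2.43% higher and 2.3% lower in TKO). The median log2 ratio of the 10 was -0.05, against 0.00 for all tested genes, and 9 of the 10 lay within 0.5 of 0, as did 83.7% of tested genes. Rel stood farthest from 0, at 1.78-fold lower in TKO, and Nfkbib farthest in the other direction, at 1.41-fold higher. The counting interval excluded no change for 5 of the 10 genes (Nfkbia and Nfkbib above, Nfkb1, Rela and Rel below), against 44.6% of tested genes (21.8% above and 22.7% below). In the authors' deposited table the FDR was at most 0.05 for 4 of the 10 genes, Nfkb1, Rela, Rel and Nfkbib, against 26.4% of all genes. The labels do not state that test, and with 1 library per genotype it compares the libraries and not the conditions.

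**Figure D1:**
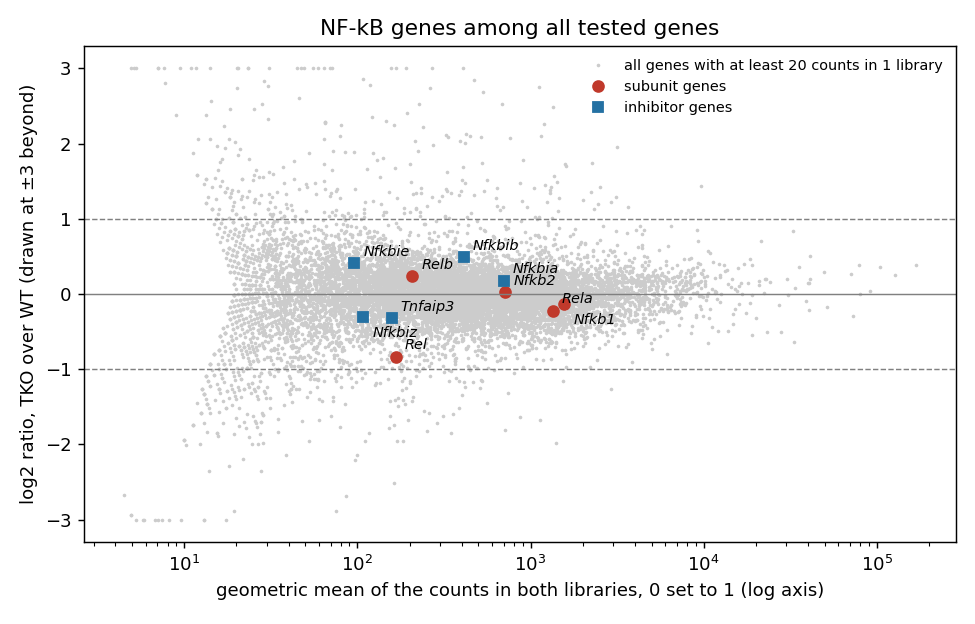
Log2 ratio of TKO over WT (vertical axis) against the geometric mean of the counts in both libraries (logarithmic horizontal axis) for the 11525 tested genes in grey, with the 5 subunit genes as red circles and the 5 inhibitor genes as blue squares. Dashed lines mark a 2-fold difference; all 10 NF-kB genes lie between them, with Rel lowest at -0.83 and Nfkbib highest at 0.49.

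Rel (Entrez 19696, chromosome 11, 23736847 to 23770970, minus strand, GRCm38) encodes c-Rel, the subunit best known from lymphocytes and from cytokine genes such as those of the interleukin-12 family. It had 122 counts in TKO and 227 in WT, which was 4.42 FPKM (counting interval 3.67 to 5.28) in TKO and 8.06 FPKM (7.05 to 9.18) in WT. The counting intervals of the levels did not overlap. The log2 ratio was -0.83 (-1.16 to -0.51), and 3.52% of the tested genes had a lower one. At a threshold of 1.5-fold in place of 2-fold, Rel was the only member past the rule, 1 of 10 genes lower in TKO, against 5.52% of tested genes. Across all tested genes the log2 ratio declined with gene length, and the fitted trend was 0.15 at the length of Nfkbib, the shortest of the 10 genes, and -0.10 at that of Tnfaip3, the longest. With this length trend removed, Rel had a log2 ratio of -0.87. The length the authors used for Rel was 2584 bases, whereas the GENCODE transcript has 7466, of which 5418 are 3′ UTR, so its FPKM depends on the gene model.

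Because Rel is abundant in lymphocytes and dendritic cells, markers of both were set beside it. Of 5 B cell markers 2 reached the minimum, of which 1 was lower in TKO and 0 higher. The lower gene, Ebf1 (8 counts in TKO, 21 in WT), reached the minimum only in WT, so it could only be called lower. The 5 markers summed to 1.88 FPKM in TKO and 2.61 FPKM in WT, with Pax5 at 0 counts in TKO and Ms4a1 at 0 in WT. The 5 measured T and NK cell markers had 2 past the minimum, with 1 lower in TKO, and summed to 64.7 FPKM in TKO and 62.9 FPKM in WT, nearly all of it Il7r at 62.0 FPKM in TKO and 59.6 FPKM in WT. The tested dendritic cell markers went the other way from Rel, with 4 of 6 higher in TKO and none lower by the size rule. The 6 measured markers under the minimum, Batf3, Ccr7, Cd209a, Clec9a, Siglech and Zbtb46, give no direction for this list. For this and the other marker lists, 2.43% of the 11525 tested genes were higher and 2.3% lower. Of the 4, Dpp4 (22 counts in TKO, 8 in WT) and Flt3 (27 in TKO, 10 in WT) reached the minimum only in TKO. These genes could therefore only be called higher. The 12 measured dendritic cell markers summed to 45.5 FPKM in TKO and 19.3 FPKM in WT, and Cd209a was at 0 counts in TKO. Most of the sum was Itgax (19.5 FPKM in TKO, 7.75 FPKM in WT) and Cd24a (21.3 FPKM in TKO, 8.95 FPKM in WT). Flt3, Dpp4, Xcr1 and Irf4 lay below 1 FPKM in each library. Of the fibroblast and stroma markers, 9 of 12 tested genes were lower in TKO and 0 higher. Among the 9, Pdgfra (13 counts in TKO, 35 in WT) reached the minimum only in WT, so it could only be called lower. The 13 measured genes summed to 35.3 FPKM in TKO and 117.8 FPKM in WT, with none at 0 counts. Of the 9 measured neutrophil markers 3 were tested and 1 was higher. That gene, S100a8 (21 counts in TKO, 9 in WT), reached the minimum only in TKO, so it could only be called higher. The 9 markers summed to 36.2 FPKM in TKO and 30.2 FPKM in WT, with Camp and Retnlg at 0 counts in TKO and Elane in WT. Most of the sum was Csf3r, at 23.8 FPKM in TKO and 21.6 FPKM in WT. The part of any of these cell types in the NF-kB values was not tested, and in bulk RNA fewer cells of a type and less RNA per cell cannot be told apart.

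Rela (Entrez 19697, chromosome 19, 5637483 to 5648130, plus strand) encodes p65, the main activating subunit of the canonical dimer. It had 1222 counts and 42.2 FPKM in TKO, against 1490 counts and 50.4 FPKM in WT. The log2 ratio was -0.22 (-0.33 to -0.11), a difference of 1.17-fold that lies outside counting error but inside the range of most genes, as 23.9% of the tested genes had a lower ratio. It remained below 0 without the length trend, at -0.25 (-0.36 to -0.14).

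Nfkb1 (Entrez 18033, chromosome 3, 135584655 to 135691547, minus strand) encodes p105, which is processed to p50, the usual partner of p65. With 1468 counts in TKO and 1678 in WT, it had the most counts of the 10 genes in each library. Its level was 33.1 FPKM in TKO and 37.1 FPKM in WT. The log2 ratio was -0.13 (-0.23 to -0.03). Without the length trend it was -0.05 (-0.15 to 0.05), so the side of 0 on which its interval lay depended on that trend. Transcript counts do not separate p105 from p50, which come from the same messenger RNA.

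The genes of the noncanonical subunits, which act in dimers released through the kinase NIK, both had counting intervals that include no change. Nfkb2 (Entrez 18034, chromosome 19, 46304320 to 46312385, plus strand), the gene of p100 and p52, had 698 counts and 21.1 FPKM in TKO, against 717 counts and 21.3 FPKM in WT, a log2 ratio of 0.03 (-0.13 to 0.18). Its ratio was the nearest to 0 of the 10 and had the other sign under 3 of the alternative settings (library totals and both log2 FPKM settings). Its exons overlap genes on the opposite strand, the noncoding gene AC114539.1 over 11.6% of their bases and Psd over 6.52%, and the sources used here do not say whether strand was used in counting; Psd had 47 counts in TKO and 44 in WT. Relb (Entrez 19698, chromosome 7, 19606217 to 19629438, minus strand), the partner of p52, had 220 counts and 9.30 FPKM in TKO, against 195 counts and 8.11 FPKM in WT. Its log2 ratio was 0.24 (-0.05 to 0.53), and the counting interval includes no change.

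The 3 classical inhibitors had ratios above 0. Nfkbia (Entrez 18035, chromosome 12, 55489410 to 55492647, minus strand) encodes IkB-alpha, the fast feedback inhibitor that NF-kB itself induces. It had 730 counts and 43.3 FPKM in TKO, against 674 counts and 39.2 FPKM in WT, a log2 ratio of 0.18 (0.03 to 0.33). Without the length trend the ratio was 0.05 (-0.10 to 0.20), so the interval then included 0.

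Nfkbib (Entrez 18036, chromosome 7, 28758251 to 28767512, minus strand) encodes IkB-beta, the inhibitor of slower turnover. It had 478 counts in TKO and 356 in WT, with 32.6 FPKM (29.7 to 35.6) in TKO and 23.7 FPKM (21.3 to 26.3) in WT. Its levels did not overlap within counting error. The log2 ratio was 0.49 (0.29 to 0.69), or 1.41-fold, and 8.10% of the tested genes had a higher one. It was 0.34 (0.14 to 0.54) without the length trend, which matters most for Nfkbib because its deposited length, 1390 bases, is the shortest of the 10. Its exons share 14.5% of their bases with Ccer2, which had 2 counts in TKO and 1 in WT, and 1.94% with Sirt2, which had 1977 in TKO and 1811 in WT, both on the opposite strand. Nfkbie (Entrez 18037, chromosome 17, 45555703 to 45563169, plus strand), the gene of IkB-epsilon, had 108 counts and 4.15 FPKM in TKO, against 85 counts and 3.20 FPKM in WT. The log2 ratio was 0.41 (-0.01 to 0.84), close in size to that of Nfkbib but on fewer counts, and its interval reached 0.

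The other feedback regulators lay on the other side of 0. Nfkbiz (Entrez 80859, chromosome 16, 55811375 to 55838899, minus strand) encodes IkB-zeta, a nuclear IkB protein that cooperates with p50 at secondary response genes. It had 95 counts and 2.45 FPKM in TKO, against 123 counts and 3.15 FPKM in WT, a log2 ratio of -0.31 (-0.71 to 0.09). Tnfaip3 (Entrez 21929, chromosome 10, 19000910 to 19015657, minus strand) encodes A20, a ubiquitin-editing enzyme that ends NF-kB signalling. It had 138 counts and 2.89 FPKM in TKO, against 180 counts and 3.72 FPKM in WT, a log2 ratio of -0.32 (-0.65 to 0.01). Both intervals include no change, so at this depth neither difference was detectable above counting error.

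**Figure D2:**
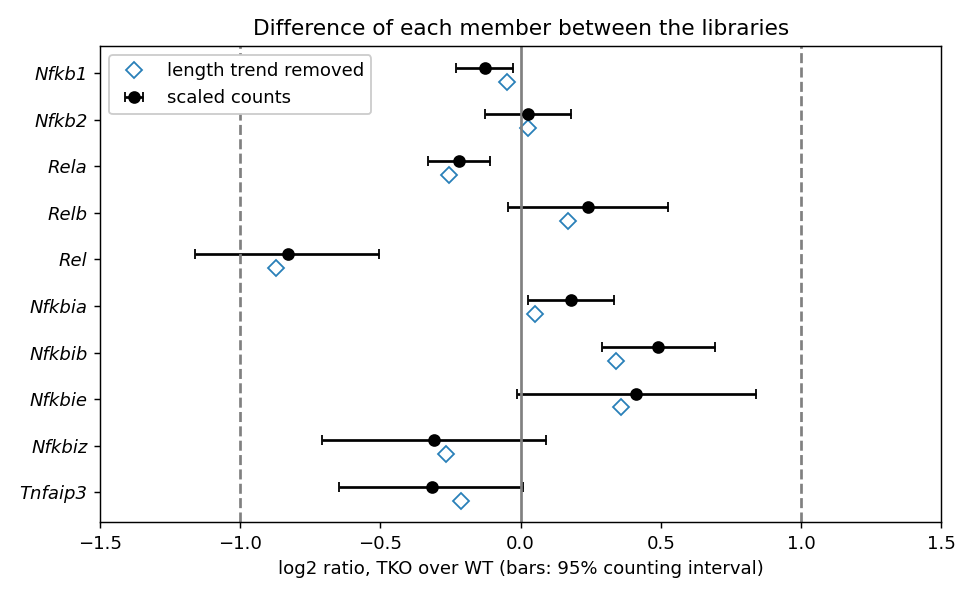
Log2 ratio of TKO over WT for each gene, from scaled counts (black points, bars showing the 95% counting interval) and after removal of the length trend (open diamonds). Dashed lines mark 2-fold; Rel at -0.83 and Nfkbib at 0.49 are the farthest from 0, and no point passes the dashed lines.

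The inhibitor and subunit genes were also summed. The 5 subunit genes had 3730 counts in TKO and 4307 in WT, a log2 ratio of -0.14 (-0.21 to -0.08), and the 5 inhibitor genes had 1549 in TKO and 1418 in WT, a log2 ratio of 0.19 (0.09 to 0.30). Most of the inhibitor sum came from Nfkbia and Nfkbib, with 730 and 478 counts in TKO. At their lengths the fitted trend was 0.13 and 0.15, and at that of Nfkb1, the largest part of the subunit sum, -0.08. The length trend was not removed from these sums. Each group was mixed, with 2 of 5 subunit genes and 3 of 5 inhibitor genes above 0, with or without the length trend. The median log2 ratio without that trend was -0.05 for the subunit genes and 0.05 for the inhibitor genes.

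Ratios between members within a library do not depend on how the libraries were scaled. Per length, there was 0.773 Nfkbib for each Rela in TKO and 0.470 in WT, and from the counts this ratio was 1.64 times as high in TKO (1.40 to 1.92). Nfkbia stood at 1.03 of Rela in TKO and 0.777 in WT, a change of 1.32 times (1.16 to 1.51), and Nfkbie at 0.0985 in TKO and 0.0635 in WT, a change of 1.55 times (1.14 to 2.10). The 3 ratios share Rela as denominator and are not independent. Nfkbiz and Tnfaip3 kept nearly their place beside Rela, with changes of 0.942 times (0.705 to 1.25) and 0.935 times (0.734 to 1.19).

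Within the subunits, the ratio of Rel to Rela was lower in TKO and those of Relb and Nfkb2 to Rela higher, beyond counting error. Rel stood at 0.105 of Rela in TKO and 0.160 in WT, a change of 0.655 times (0.515 to 0.831), while Relb stood at 0.221 of Rela in TKO and 0.161 in WT, a change of 1.38 times (1.11 to 1.70). Rel stood at 0.475 of Relb in TKO and at 0.994 in WT, where the pair had near-equal levels, a change of 0.476 times (0.352 to 0.645). Nfkb2 per Rela was 0.4999 in TKO and 0.422 in WT, a change of 1.19 times (1.04 to 1.35), and Nfkb1 per Rela was 0.785 in TKO and 0.736 in WT, a change of 1.07 times (0.961 to 1.18). Without the length trend the changes beside Rela were 1.51 times for Nfkbib, 1.24 times for Nfkbia, 1.53 times for Nfkbie, 0.651 times for Rel, 1.34 times for Relb, 1.22 times for Nfkb2 and 1.15 times for Nfkb1.

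The order of the levels, compared per length in FPKM, was much the same in both libraries. In TKO it ran from Nfkbia and Rela, whose counting intervals overlapped, through Nfkb1 and Nfkbib, which also overlapped, to Nfkb2, then Relb, and then Rel, Nfkbie, Tnfaip3 and Nfkbiz, of which each neighbouring pair overlapped. In WT it ran from Rela to Nfkbia and Nfkb1, which overlapped, to Nfkbib and Nfkb2, which overlapped, to Relb and Rel, which overlapped, and then to Tnfaip3, Nfkbie and Nfkbiz, of which each neighbouring pair overlapped. Rela was highest in WT, whereas Nfkbia and Rela were not told apart in TKO, and the interval of Rel lay apart from that of Relb in TKO and overlapped it in WT. The 10 genes summed to 195 FPKM in TKO and 198 FPKM in WT.

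**Figure D3:**
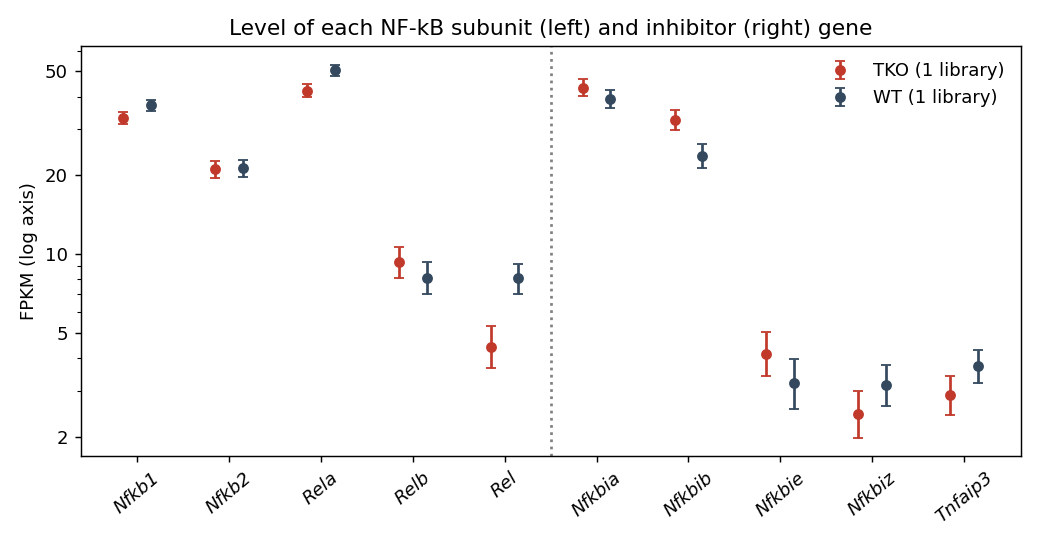
Level of each gene in FPKM on a logarithmic axis, with TKO in red to the left of WT in dark blue and bars showing the exact Poisson 95% interval of the count. Rel (4.42 in TKO, 8.06 in WT) and Nfkbib (32.6 in TKO, 23.7 in WT) are the pairs farthest apart, and Nfkb2 (21.1 and 21.3) the closest.

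NF-kB binds a short DNA element, the kB site, and several of these genes are known targets of the factor. A kB-like motif, made of GGG, 2 bases of any kind, TT, 1 base of any kind and CC, was searched for on both strands in RefSeq windows from 250 bases before to 50 after each annotated start (GRCm38.p6), with overlapping matches counted. Of the 7 members with a window, 4 held a match in at least 1 window, against 6.50% of the 8892 tested genes with a window. These stretches are printed with the matches in capitals, on the strand of the gene, because they show which members carry a kB-like element near an annotated start.
Nfkb2, chr19:46304688-46304746, plus strand: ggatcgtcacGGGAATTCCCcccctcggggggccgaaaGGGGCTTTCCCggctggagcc
Nfkb2, chr19:46305695-46305724, plus strand: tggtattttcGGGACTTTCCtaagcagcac
Rel, chr11:23771041-23771071, minus strand: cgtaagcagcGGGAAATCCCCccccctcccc
Nfkbia, chr12:55492657-55492686, minus strand: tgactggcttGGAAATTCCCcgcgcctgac
Tnfaip3, chr10:19015403-19015432, minus strand: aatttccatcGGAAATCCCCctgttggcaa
The match of Nfkbia began 29 bases before its annotated start, that of Tnfaip3 12 bases before, and those of Rel 92 and 91 bases before. Rela, Nfkbib and Nfkbie held none of these letters in their windows. Genes with a match lay on both sides of 0, with log2 ratios of -0.83 for Rel, -0.32 for Tnfaip3, 0.03 for Nfkb2 and 0.18 for Nfkbia. The match is a description of sequence and does not show binding in these cells.

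The rest of the pathway was described by 6 lists, 5 upstream or partner lists and 1 of target genes. In the 5 upstream and partner lists together, 0 of 72 tested genes passed the size rule, against 4.73% of all tested genes. The 16 genes of the IKK and activating kinase list had a median log2 ratio of -0.08, or 0.00 without the length trend. Tab2, an adaptor of the kinase TAK1 and the most abundant member, had 56.3 FPKM in TKO and 67.5 FPKM in WT, a log2 ratio of -0.22. Map3k8, the kinase TPL2 that binds p105, had 220 counts in TKO and 168 in WT, a log2 ratio of 0.45 (0.16 to 0.75). Ikbke, the IKK-related kinase that acts in antiviral signalling, had 504 counts in TKO and 415 in WT, a log2 ratio of 0.35 (0.16 to 0.54). The IKK subunit genes Chuk, Ikbkb and Ikbkg, chosen after their values were seen, had -0.18, -0.06 and -0.25. Without the length trend the values were -0.14, -0.02 and 0.01.

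The 15 TRAF adaptor and ubiquitin ligase genes had a median of 0.07. Traf1, an adaptor that NF-kB induces, had 99 counts in TKO and 61 in WT, a log2 ratio of 0.76 (0.29 to 1.25), the largest in that list. Traf6, the ubiquitin ligase that relays Toll-like receptor signals, had 519 in TKO and 676 in WT, a log2 ratio of -0.32 that was -0.09 without the length trend. Rbck1 and Rnf31, which encode parts of the linear ubiquitin ligase, had 0.28 and 0.27.

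The 20 other inhibitor and deubiquitinase genes had a median of 0.09. Nfkbil1, named for its similarity to IkB proteins, had 257 counts in TKO and 183 in WT, a log2 ratio of 0.56 (0.28 to 0.84), and Pdlim2, a ligase for nuclear p65, had 0.41. N4bp1 and Itch, both brakes on the pathway, had -0.44 and -0.34, or -0.19 and -0.17 without the length trend. The 8 tested TNF superfamily receptor and ligand genes had a median of 0.09. Tnfrsf1b, which encodes TNF receptor 2, had 148 FPKM in both libraries, and Tnfrsf11a, the receptor RANK, had 13.2 FPKM in TKO and 18.1 FPKM in WT, a log2 ratio of -0.42 (-0.56 to -0.28). Tnfsf14, the ligand LIGHT, had 31 counts in TKO and 17 in WT, a log2 ratio of 0.93 on few reads (0.03 to 1.88). The 13 nuclear partner genes had a median of -0.02. The acetyltransferase genes Ep300 and Crebbp had -0.34 and -0.28, or 0.01 and 0.03 without the length trend. Setd7 had -0.39, or -0.09 without that trend. Kat5 and Rps3, the most abundant gene of the list, had 0.27 and 0.15, or 0.17 and 0.05 without it. The medians compare with 0.00 over all tested genes.

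Among known NF-kB target genes of macrophages, 3 chemokine genes and 1 cytokine gene were higher in TKO. Of 37 measured targets 26 reached the minimum, of which 4 were higher in TKO and 1 lower by the size rule, against 2.43% and 2.3% of tested genes. The median log2 ratio of the 26 was 0.41, or 0.31 without the length trend, and 20 of the 26 lay above 0, beside a median of 0.00 over all tested genes. The 11 measured targets under the minimum were Ccl22, Ccr7, Csf2, Csf3, Cxcl1, Il10, Il12b, Il1a, Il6, Nos2 and Vcam1. The chemokine gene Ccl4 had 106 counts in TKO and 39 in WT, a log2 ratio of 1.51 (0.97 to 2.08). The chemokine gene Ccl5 had 153 in TKO and 61 in WT, a log2 ratio of 1.39 (0.96 to 1.84). Il1b, the cytokine interleukin-1 beta, had 47 in TKO and 21 in WT, a log2 ratio of 1.23 (0.46 to 2.04).

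The fourth gene higher in TKO was Cxcl10, a chemokine, with 165 counts in TKO and 74 in WT, a log2 ratio of 1.22 (0.82 to 1.64). The gene lower in TKO was Mmp9, a matrix metalloproteinase, with 19 in TKO and 52 in WT, a log2 ratio of -1.39 (-2.23 to -0.60). Mmp9 reached the minimum only in WT, so it could only be called lower. The cytokine gene Tnf had 123 in TKO and 69 in WT, a log2 ratio of 0.90 (0.46 to 1.35), below the threshold. Cxcl10 and Tnf fall outside the rule for naming genes and were chosen after their values were seen. Slfn2, the most abundant target, had 300 FPKM in TKO and 171 FPKM in WT, a log2 ratio of 0.85. Ccl5, Cxcl10 and Slfn2 are also known to be induced by interferon, so the list is not specific to NF-kB. The difference between the target list and the NF-kB genes was not tested. The part of dendritic cells, which express several of these chemokine genes, was not tested either. Of their markers 4 of 6 tested genes were higher in TKO, with the limits given above.

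**Figure D4:**
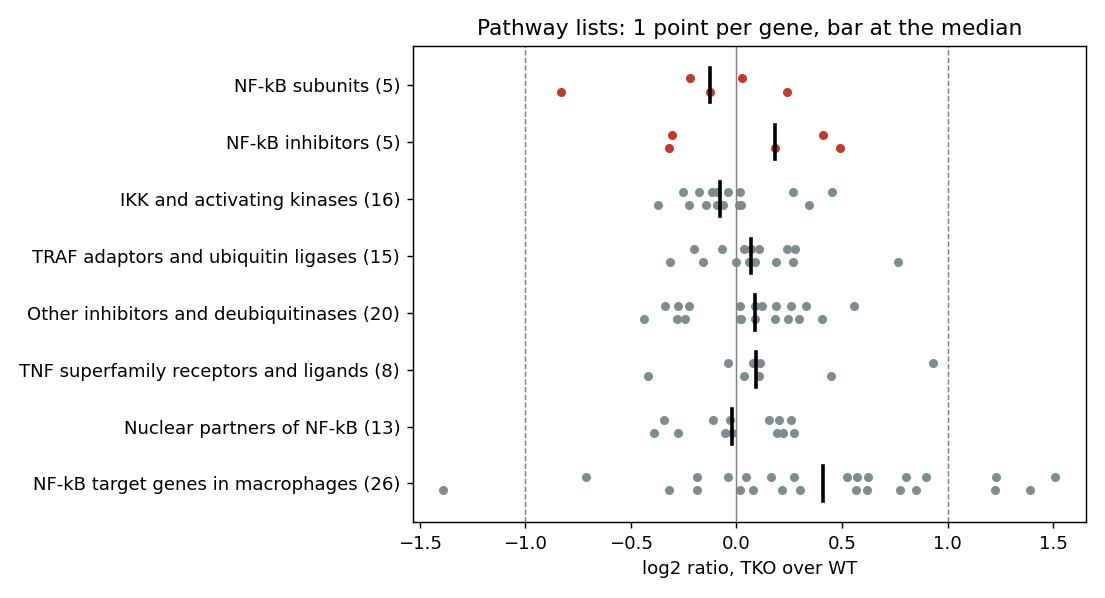
Log2 ratio of TKO over WT for every tested gene of the NF-kB subunits and inhibitors (red) and of the 6 pathway lists (grey), with a black bar at each median and the number of genes in brackets. Medians of the lists upstream lie between -0.08 and 0.09, while that of the target genes lies at 0.41, with 4 genes beyond 1 and 1 below -1.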

How the data were processed

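The labels list HISAT2 (2.0.4), Bowtie2 (2.2.5) and RSEM (1.2.12) with the mm10 build in the submitters' processing notes, without saying what each did, and name no annotation. The expected counts deposited for each library are estimated reads and need not be whole. FPKM, named per the file headers, was deposited beside them, and genes without counts stand at 0.01 there. The authors' log2 ratio sets TKO FPKM over WT FPKM. How the authors' p-value was computed is not stated, and the authors' FDR is handled as a score, since 713 entries lie above 1.

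Counts were rounded to whole numbers, and library sizes were multiplied by TMM factors (edgeR 4.0.16, R 4.3.3) of 0.988 for TKO and 1.01 for WT. The log2 ratio had no pseudocount, a count of 0 was set to 3, and exact 95% Clopper-Pearson limits were taken for the TKO share of both counts. Intervals of FPKM are exact Poisson intervals of the count. No molecular identifiers are described, so reads may repeat a molecule and every interval reflects counting error alone. The length trend was a lowess curve (span 0.3, statsmodels 0.14.6) of the ratio on the deposited gene length. The size rule and trend removal were tested on simulated counts with counting error alone. That simulation holds no spread between cultures, so it cannot show how the rule behaves with 1 library per genotype. Gene positions and 3′ UTRs were taken by symbol from GENCODE M21, whose GRCm38 assembly is that of mm10.

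The members and lists were chosen with earlier results of these data known. A further marker gene is not reported here. The rule for naming took the 10 members, the host genes and, in each pathway list, the most abundant gene and up to 4 with the largest absolute ratio, those past the size rule first. Not every pathway gene that this rule took is printed above. Alternatives were library totals, DESeq2 1.42.0 size factors, log2 of FPKM plus 1 or 0.1, removal of the length trend, other count minimums and other fold thresholds. No genes of similar pattern were sought, since with 1 library per genotype a pattern is 1 ratio. The table left 0 columns of per-sample values unmatched.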

Additional observations from a re-analysis of the deposited data

How the results depend on the processing

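No paired analysis was possible because each genotype had 1 library. The 10 log2 ratios of the NF-kB genes stayed within their main counting intervals under the 5 alternatives that can move them (scaling, FPKM and length settings); count minimums and fold thresholds leave them as they are. Of the 10, Nfkb2 alone took the other sign, in 3 settings, with values between -0.01 and 0.03. Rel lay between -0.87 and -0.74 and Nfkbib between 0.34 and 0.49. At 1.5-fold 1 NF-kB gene was lower in TKO, Rel. Of all 11525 tested genes, 591 were higher and 636 lower in TKO at 1.5-fold, and 76 and 26 at 4-fold. With a minimum of 100 counts, 164 were higher and 95 lower of 9257 genes. With no minimum, 338 were higher and 321 lower of 14707 genes. Of the 11297 genes in the FPKM settings, 213 were higher and 122 lower with log2 of FPKM plus 1. With log2 of FPKM plus 0.1 the counts were 313 and 255. Of the 26 tested NF-kB targets, 8 were higher and 2 lower at 1.5-fold and 0 and 0 at 4-fold. With a minimum of 100 counts or log2 of FPKM plus 1, 3 targets were higher and 0 lower. Log2 of FPKM plus 0.1 gave 4 higher and 2 lower, and no minimum gave 5 higher and 2 lower. Of the 8 tested TNF superfamily genes 1 was higher at 1.5-fold, Tnfsf14. It reached the minimum only in TKO, with 31 counts against 17 in WT, so it could only be called higher. A TNF superfamily gene was also higher with log2 of FPKM plus 0.1 and with no minimum. In neither setting was it Tnfsf14, which lay under the 2-fold threshold. Of the 15 TRAF or ligase genes 1 was higher at 1.5-fold. FPKM settings took genes with at least 1 FPKM and used no interval. For Nfkbie, Nfkbiz and Tnfaip3, with 85 to 180 counts a library, differences of the size seen lie within counting error, and with 1 library per genotype the spread between cultures is unknown.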
